A study of Mus musculus with 6 samples.

Results

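The ubiquitin ligase and deubiquitinase genes printed on a mouse cDNA array were followed in Neuro-2a cells transfected with 59Q, a GFP-tagged human TATA-box binding protein (TBP) whose repeat is 59 long, against cells transfected with N3, the vector pEGFPN3 that makes GFP alone. The genes were taken by symbol: cullins, the F-box families Fbxl, Fbxo and Fbxw, the numbered Rnf, Trim and Usp genes, and the OTU genes. This gave 150 of the 6788 genes with a single symbol on the array, made up of 44 Rnf, 37 Usp, 29 Trim, 14 Fbxo, 7 Fbxw, 7 OTU, 6 Fbxl and 6 cullin genes. They were printed as 216 cDNA clones in duplicate, 432 spots in all. One further clone that carries 2 symbols was left out.

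A ubiquitin ligase attaches the small protein ubiquitin to a chosen substrate, often marking it for the proteasome, and a deubiquitinase takes it off again. Cullins are scaffolds that hold a RING protein at one end and a substrate adaptor, such as an F-box protein, at the other, whereas most Rnf and Trim proteins carry their own RING domain and Usp and OTU proteins cleave ubiquitin chains. Proteins with long polyglutamine tracts gather in aggregates that commonly stain for ubiquitin, and a repeat expansion in TBP causes a spinocerebellar ataxia.

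Neuro-2a is an established mouse neuroblastoma line, so both arms keep the cells' own mouse Tbp, and the transfection was transient, so transfected and untransfected cells were pooled in each RNA. All RNA was taken 60 h after transfection, and each of the 6 arrays set 59Q RNA against N3 RNA directly. The 59Q RNA was in the Cy5 channel on replicates 1, 3, 4 and 6 and in the Cy3 channel on replicates 2 and 5. The methods call the arrays 6 replicates from different batches of cells, whereas the series text speaks of 4 biological replicates and flip-dye pairs that it does not identify, so p-values measure only the spread between these arrays. In pooled RNA, a change in few cells and a smaller change in all of them cannot be told apart.

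Each deposited value is a Z-ratio, a spot's difference between both channels scaled to mean 0 and SD 1 on its array, and carries no expression level or fold change. Its direction is not stated. Both possible readings of each mean are therefore given. The first takes values as deposited, as 59Q over N3. The second takes them as Cy5 over Cy3 and turns the sign of replicates 2 and 5, so that a positive mean again stands for more signal in 59Q. If the values are 59Q over N3, the second reading collects dye effects instead, and the files do not tell these cases apart.

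The arrays differed in how much of the gene set they measured. Of the 150 genes, 150 and 112 had a value on replicates 1 and 3, the fullest and the emptiest array, and duplicate spots of the same clone correlated at r = 0.569 to 0.866 across member clones (spots of 1 array, not independent replicates). Over all genes r between arrays was -0.192 at the median of 8 pairs of opposite dye orientation and 0.162 in 7 pairs of like orientation, and over the members -0.262 and 0.0388. The transfected gene's mouse counterpart, Tbp, lay at 2.92, -0.0977, 0.176 and 1.04 on replicates 1, 3, 4 and 6 and at 2.31 and 1.74 on replicates 2 and 5, a mean of 1.35 ± 1.19 as deposited and -0.00150 ± 1.90 read as Cy5 over Cy3 (SD, n = 6). It was above 0 on 5 of 6 arrays, and whether its mouse clones detect the human transcript was not tested. Only 4 of 16 listed neuroblast markers were on the array, and a Z-ratio gives no level, so the cell type could not be checked.

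Because TBP binds the TATA box, promoters are shown with the letters TATAAA (or its reverse complement TTTATA) in capitals. Those of Rnf10, Trim30d, Trim27 and Fbxl18 are given as examples from the members whose values are described below. Promoters come from the RefSeq promoter table of GRCm38.p6 and were matched by gene for 118 of the 150 members. They run 5′ to 3′ on the gene's strand from 250 bases before to 50 bases after the start. Rnf10 is at chr5:115272846-115273145, minus strand, Trim30d at chr7:104507800-104508099, minus strand, Trim27 at chr13:21179681-21179980, plus strand and Fbxl18 at chr5:142895189-142895488, minus strand.
Rnf10: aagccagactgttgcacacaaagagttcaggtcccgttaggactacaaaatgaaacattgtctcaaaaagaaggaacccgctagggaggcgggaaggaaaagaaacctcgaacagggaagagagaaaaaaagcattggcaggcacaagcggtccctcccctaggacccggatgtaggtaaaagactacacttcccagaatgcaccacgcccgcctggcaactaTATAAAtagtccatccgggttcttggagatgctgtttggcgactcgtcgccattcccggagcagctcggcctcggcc
Trim30d: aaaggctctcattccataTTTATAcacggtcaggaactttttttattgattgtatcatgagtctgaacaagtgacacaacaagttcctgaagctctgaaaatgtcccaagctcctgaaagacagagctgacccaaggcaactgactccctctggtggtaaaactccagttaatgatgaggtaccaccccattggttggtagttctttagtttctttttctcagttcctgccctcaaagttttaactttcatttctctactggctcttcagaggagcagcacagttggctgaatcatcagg
Trim27: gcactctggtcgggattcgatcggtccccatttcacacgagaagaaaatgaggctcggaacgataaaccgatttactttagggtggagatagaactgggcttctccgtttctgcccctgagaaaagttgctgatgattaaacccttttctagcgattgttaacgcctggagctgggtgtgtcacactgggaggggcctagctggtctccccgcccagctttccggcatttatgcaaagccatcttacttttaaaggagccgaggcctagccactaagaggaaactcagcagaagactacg
Fbxl18: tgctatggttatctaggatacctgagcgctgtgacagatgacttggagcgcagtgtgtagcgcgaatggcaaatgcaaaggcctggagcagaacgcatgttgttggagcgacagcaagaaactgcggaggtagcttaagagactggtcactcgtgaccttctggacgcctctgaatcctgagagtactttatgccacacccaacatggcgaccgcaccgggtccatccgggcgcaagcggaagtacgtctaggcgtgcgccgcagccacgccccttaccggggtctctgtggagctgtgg
The Rnf10 promoter held TATAAA on the gene's own strand, beginning at position -27 (the start being 0), and Trim30d held it on the opposite strand at position -232. Trim27 and Fbxl18 had no match in this window. Members described below whose promoters are not shown also held it, among them Cul5 and Rnf19b, on the opposite strand at positions -249 and -32. Among the 118 members, 13 (11.02%) held TATAAA on either strand, against 4234 of 27025 genes (15.7%) in the whole table. Rnf10 was the only member with it on its own strand 20 to 40 bases before the start (0.847%), against 650 genes (2.41%) overall. A match of letters is not a binding site.

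None of the 144 members measured on at least 4 arrays passed limma's test in either reading. As deposited, 0 of 144 members and 0 of 6463 genes (0%) had an adjusted p under 0.05, and before adjustment 3 members (2.08%) and 169 genes (2.61%) were under 0.05. In the Cy5 over Cy3 reading 0 members and 18 genes (0.279%) passed, and before adjustment 22 members (15.3%) and 1282 genes (19.8%) were under 0.05. The difference between the dye orientations was called for 0 members and 0 genes (0%), with 18 members (12.5%) and 1041 genes (16.1%) under 0.05 before adjustment. The members' shares lay near or below those of all genes in each of these counts. Exact 2-sided sign-flip permutation tests cannot go below p = 0.0312 with 6 arrays. A p under 0.05 then needs 1 sign on all 6 arrays, and members on fewer arrays cannot reach it. It was found for 2 of 111 members as deposited (1.8%) and 16 (14.4%) read as Cy5 over Cy3. The same sign on all 6 arrays was held by 1.58% and 16.2% of 4926 genes in the same order. The smallest adjusted values were 0.900 and 0.281 over the 144 tests of each reading.

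Mean Z-ratios of the members centred close to those of all genes. The median over members was -0.0487 as deposited, against -0.0449 over all 6463 genes tested, with 60 members above 0 and 84 below. Read as Cy5 over Cy3 it was -0.178, against -0.160, with 49 above 0 and 95 below. No member's mean reached the size that the methods take as their threshold, a Z-ratio of nearly 2, against 17 genes as deposited (0.263%) and 37 read as Cy5 over Cy3 (0.572%). A mean of at least 1 in size was found for 4 members as deposited (all genes, 1.61%), namely Rnf167, Trim30d, Fbxl18 and Usp38, and for 5 read as Cy5 over Cy3 (all genes, 4.1%), namely Rnf167, Trim30d, Fbxo42, Rnf114 and Rnf225. In all, 6 members with values on fewer than 4 arrays were not tested, and these were Fbxw24, Rnf4, Rnf26, Trim13, Trim34a and Usp46.

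**Figure D1:**
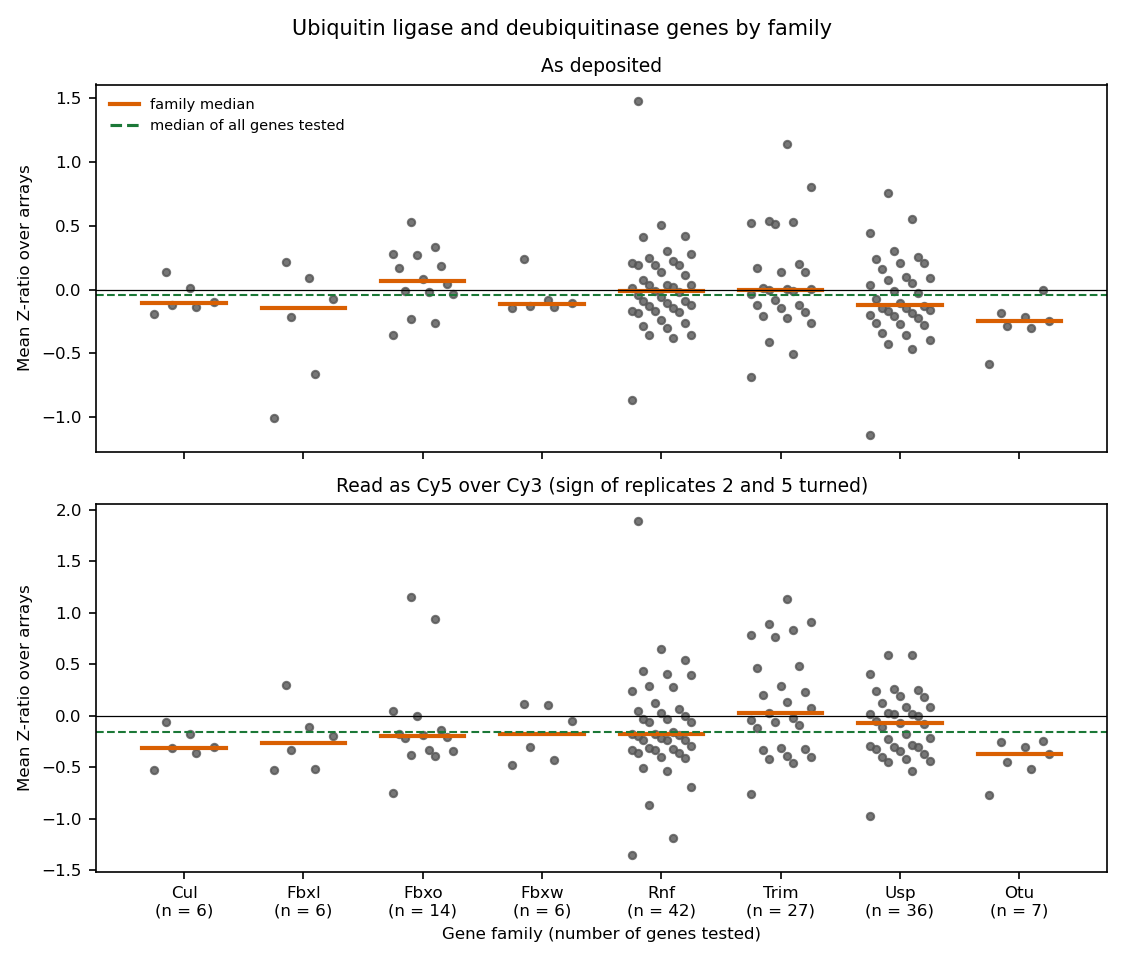
Mean Z-ratio over arrays (vertical axis, no unit) of each tested member by family (horizontal axis), as deposited above and read as Cy5 over Cy3 below, with family medians as orange bars and the median of all 6463 genes tested as a dashed green line. The 7 OTU genes lie below 0 in both panels and the 6 cullins lie below 0 in the lower one.

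The plot by family shows where the small shifts lay. All 7 OTU deubiquitinases had a mean below 0 in both readings, with medians of -0.245 as deposited and -0.368 read as Cy5 over Cy3, and 0 of 7 passed the test. Over all genes 3678 of 6463 were below 0 as deposited and 4227 in the second reading, and the deposited mean of Otud4, -0.00112, ran from -0.226 to 0.195 over the alternatives in processing, and that of Otud1 from -0.411 to 0.00437. The 6 cullins had 2 means above 0 and 4 below as deposited, and 0 above and 6 below read as Cy5 over Cy3 (median -0.309), which became 1 above and 5 below once each array's median was subtracted. That subtraction moved the median of all genes in this reading to -0.0929, and 5 of 6 cullins and 7 of 7 OTU genes stayed below the all-gene median with it. The Trim genes were the family with the largest share above 0 read as Cy5 over Cy3, 14 of 27, against 2236 of 6463 genes (34.6%). These family patterns are counts and carry no test.

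Among the cullins, Cul5, the scaffold for SOCS-box adaptors, was the most even. It lay at -0.346, -0.466, -0.577 and -0.269 on replicates 1, 3, 4 and 6 (59Q in Cy5) and at 0.302 and 0.197 on replicates 2 and 5 (59Q in Cy3). Every 59Q-in-Cy5 array was below 0 and both 59Q-in-Cy3 arrays were above it, so its mean was -0.193 ± 0.360 (SD, n = 6) as deposited and -0.359 ± 0.139 (SD, n = 6) read as Cy5 over Cy3 (limma adjusted p = 0.265). These values average 2 clones, whose means read as Cy5 over Cy3 were -0.581 and -0.138. On replicate 1 the clones lay on opposite sides of 0, at -0.770 and 0.0783. Cul2, the scaffold that works with the von Hippel-Lindau protein, had the mean farthest from 0 of the cullins in the second reading, -0.532 ± 0.405 (SD, n = 6), with an adjusted p of 0.200, and -0.0941 as deposited. Cul1, the scaffold of SCF ligases, had means of -0.121 as deposited and -0.182 in the second reading, and its lowest and highest arrays were at -0.874 and 0.640. Cul3, which takes BTB-domain adaptors, averaged 0.135 and -0.0627 in the same order, Cul4b 0.0111 and -0.318, and Cul7 -0.138 and -0.301. No cullin passed the adjusted test in either reading.

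Fbxl18, a leucine-rich-repeat F-box gene, had the smallest p of any member as deposited and was below 0 on every array. It lay at -2.45, -0.785, -1.30 and -0.0503 on replicates 1, 3, 4 and 6 (59Q in Cy5) and at -1.02 and -0.445 on replicates 2 and 5 (59Q in Cy3). Values ran close to 0 on replicate 6 and far below it on replicate 1, where the duplicate spots read -2.48 and -2.42. Its mean was -1.01 ± 0.830 (SD, n = 6), with an unadjusted limma p of 0.00725, an adjusted p of 0.999 and -0.520 in the second reading. Only Fbxl18 and Rnf141 of the 111 members measured on all 6 arrays had 1 sign throughout as deposited (1.8%), against 78 of 4926 genes (1.58%). Rnf141 stayed between 0.0232 and 0.426, a narrow band just above 0, with a mean of 0.212 ± 0.157 (SD, n = 6) as deposited and 0.0620 in the second reading. That band averages 2 clones, neither of which kept 1 sign. They read 0.584 and -0.325 on replicate 4, 0.315 and -0.269 on replicate 5, and 0.999 and -0.329 on replicate 6. On replicate 3 they read -0.0367 and 0.205. Fbxl12 followed among the Fbxl genes with a mean of -0.662 as deposited and -0.331 in the second reading, whereas Fbxl5, the iron-sensing adaptor for iron regulatory proteins, averaged 0.0897 and -0.195.

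In the Fbxo family, Fbxo42 and Fbxo43 changed side with the dye orientation. Fbxo42, an F-box gene linked to p53 turnover in human cells, lay at 1.94, 0.547, 0.731 and 1.07 on replicates 1, 3, 4 and 6 (59Q in Cy5) and at -2.33 and -0.283 on replicates 2 and 5 (59Q in Cy3). All 59Q-in-Cy5 arrays were above 0 and both others below, for a mean of 1.15 ± 0.815 (SD, n = 6) read as Cy5 over Cy3 (adjusted p = 0.116) and 0.278 as deposited. Its duplicate spots on replicate 2 read -2.41 and -2.26. Fbxo43, known as Emi2 and an inhibitor of the anaphase-promoting complex in oocytes, averaged 0.940 ± 0.520 (SD, n = 5) in the second reading without a value on replicate 3 (adjusted p = 0.134) and 0.272 as deposited. Fbxo5, the related mitotic inhibitor Emi1, had a mean of -0.387 in that reading and 0.331 as deposited. Fbxo28 was above 0 on all 5 arrays that measured it as deposited, from 0.0138 to 1.48, with a mean of 0.534 ± 0.626 (SD, n = 5), but -0.140 in the second reading, on the other side of 0. Its 2 clones read 2.56 and 0.391 on replicate 2, its highest array, and 0.0830 and -0.0553 on replicate 6. Fbxo7, a gene mutated in a human parkinsonism, averaged -0.352 as deposited and -0.221 read as Cy5 over Cy3. Of the Fbxw genes, Fbxw7, the adaptor for cyclin E and Myc, was measured on 4 arrays and averaged 0.240 and 0.103, and Fbxw17 averaged -0.145 and -0.482, each as deposited and then in the second reading. The 2 Fbxw17 clones differed, at 0.320 and -0.431 as deposited and at -0.0144 and -0.826 in the second reading. The lower clone read -3.25 on replicate 6.

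**Figure D2:**
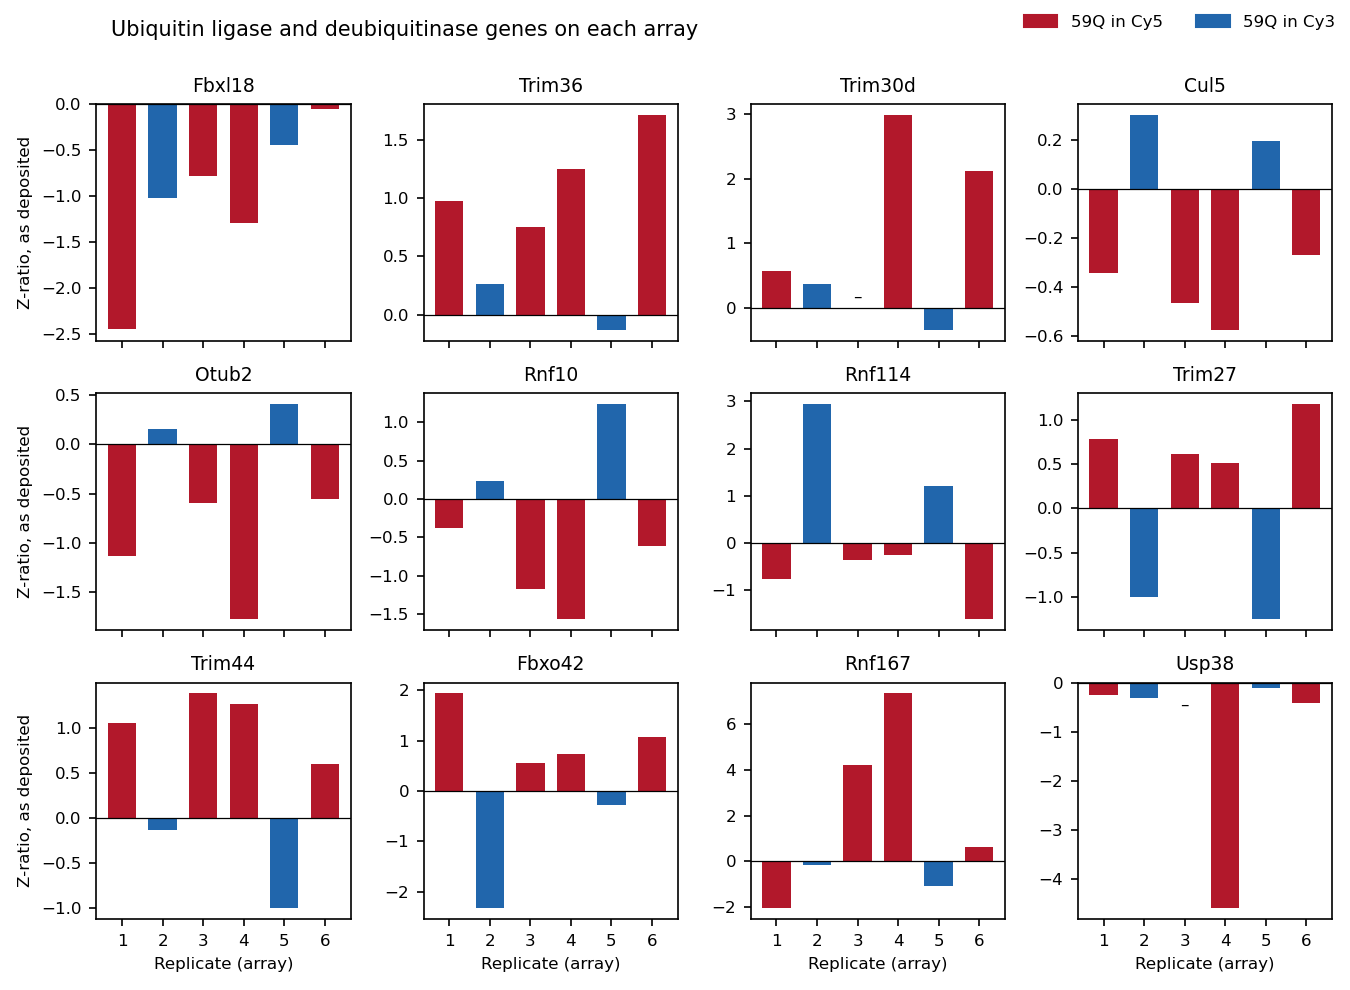
Deposited Z-ratio (vertical axis, no unit, own scale per panel) of 12 members on each of the 6 arrays (horizontal axis), in red where 59Q was in Cy5 and in blue where it was in Cy3; a dash marks an array with no value. Cul5, Otub2, Rnf10, Rnf114, Trim27, Trim44 and Fbxo42 change side with the dye, Fbxl18 is below 0 on all 6 arrays, and Usp38 and Rnf167 are set by 1 and 2 arrays.

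The Trim family held the members closest to an adjusted p of 0.05 in the second reading. Trim27, a RING ligase also called Ret finger protein, lay at 0.780, 0.613, 0.510 and 1.18 on replicates 1, 3, 4 and 6 (59Q in Cy5) and at -0.998 and -1.25 on replicates 2 and 5 (59Q in Cy3). The arrays of each orientation lay on opposite sides of 0 with no overlap, so the mean was 0.139 ± 1.01 (SD, n = 6) as deposited and 0.888 ± 0.302 (SD, n = 6) read as Cy5 over Cy3. Its adjusted p in that reading was 0.0789, the smallest of any member, and 0.0464 when only the 4926 genes on all 6 arrays were tested, where 72 genes (1.46%) passed. The 2 Trim27 clones differed on single arrays, at 2.06 and -0.50 on replicate 1 and at 0.27 and -2.77 on replicate 5, and their own adjusted p-values over all clones were 0.18 and 0.28.

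Trim44, which has a ubiquitin-protease type zinc finger in place of a RING, lay at 1.06, 1.38, 1.26 and 0.596 on replicates 1, 3, 4 and 6 (59Q in Cy5) and at -0.129 and -1.001 on replicates 2 and 5 (59Q in Cy3). It averaged 0.528 ± 0.930 (SD, n = 6) as deposited and 0.904 ± 0.466 (SD, n = 6) read as Cy5 over Cy3 (adjusted p = 0.0954). Trim32, a ligase mutated in a human limb-girdle muscular dystrophy, ran the other way and averaged -0.758 ± 0.371 (SD, n = 6) in the second reading (adjusted p = 0.123) and -0.226 as deposited. Trim28, the co-repressor of KRAB zinc-finger proteins also called KAP1, averaged -0.455 in the second reading (adjusted p = 0.213) and -0.258 as deposited.

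Trim36 and Trim30d had means that hardly moved between the readings, since their values on replicates 2 and 5 lay on opposite sides of 0. Those values nearly cancelled, so the like means do not show that the dye orientations agreed. Trim36, a RING ligase of the subfamily that binds microtubules, lay at 0.975, 0.752, 1.25 and 1.71 on replicates 1, 3, 4 and 6 (59Q in Cy5) and at 0.265 and -0.133 on replicates 2 and 5 (59Q in Cy3). Only replicate 5 was below 0, and the mean was 0.804 ± 0.667 (SD, n = 6) as deposited and 0.760 ± 0.727 (SD, n = 6) read as Cy5 over Cy3 (unadjusted p = 0.0136 and 0.0183 in the same order). Trim30d, of the rodent Trim30 group, lay at 0.577, 2.98 and 2.12 on replicates 1, 4 and 6 (59Q in Cy5) and at 0.376 and -0.337 on replicates 2 and 5 (59Q in Cy3). Its values on replicates 4 and 6 came from 1 spot of the pair, since the duplicate had none there, and the mean of 1.14 ± 1.36 (SD, n = 5) as deposited and 1.13 in the second reading was 0.684 and 0.664 without replicate 4. Trim5, Trim6, Trim12c, Trim30d and Trim34a are related antiviral genes of a mouse cluster whose sequences can cross-hybridise on cDNA, so their values are uncertain. Within it Trim5 averaged -0.685 and Trim6 -0.502 as deposited, below 0 where Trim30d was above, and Trim12c lay at 0.00142. The 3 Trim6 clones differed, with deposited means of 0.000648, -1.07 and -0.437. Read as Cy5 over Cy3, Trim5 averaged 0.487, Trim6 -0.312 and Trim12c -0.424.

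**Figure D3:**
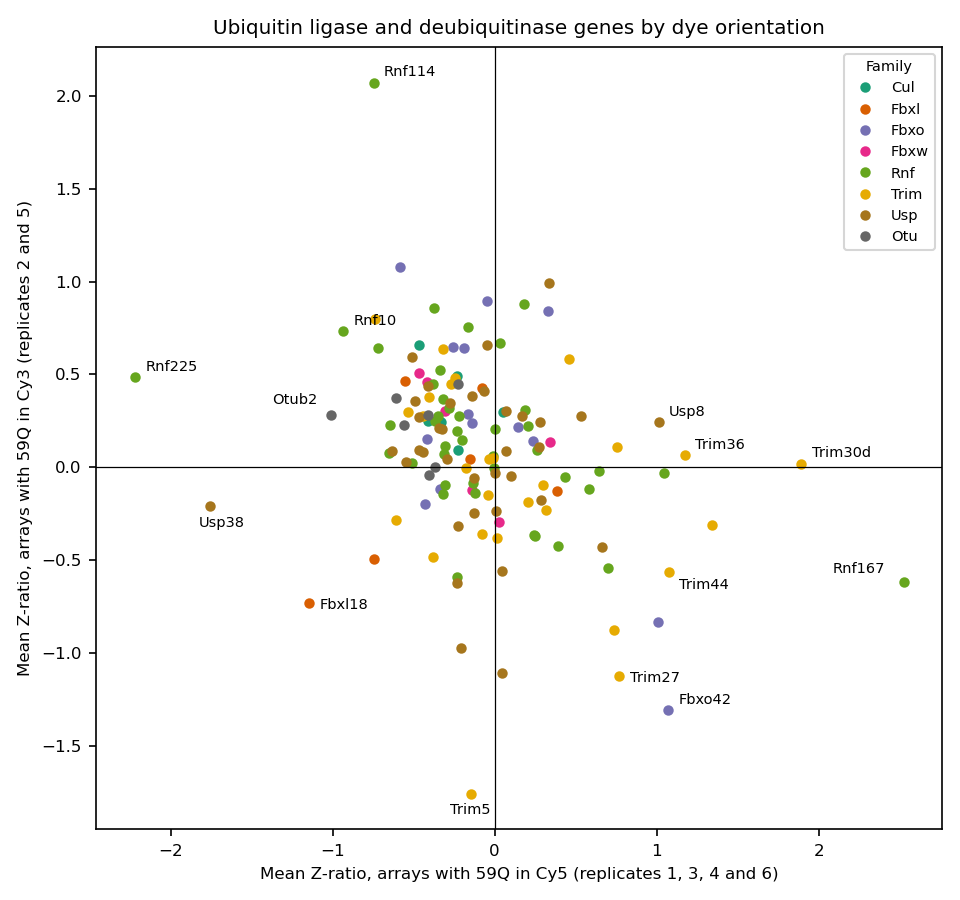
Mean deposited Z-ratio of each of the 144 tested members on the arrays with 59Q in Cy5 (horizontal axis) and with 59Q in Cy3 (vertical axis), coloured by family. The fullest part is the upper left, with 68 members below 0 on the horizontal and above 0 on the vertical axis, and 28 in the lower right.

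The plot of both dye orientations shows how often a member changed side. Of the 144 tested members, 96 (66.7%) had means of opposite sign in the 2 orientations, against 4281 of 6463 genes (66.2%). Among them 68 were below 0 with 59Q in Cy5 and above 0 with 59Q in Cy3, and 28 the reverse. Another 23 were above 0 in both and 25 below 0 in both. On all 6 arrays, 16 of 111 members (14.4%) had 1 sign throughout once replicates 2 and 5 were turned, 4 above 0 and 12 below, against 799 of 4926 genes (16.2%). These were chosen here for that pattern. They are the same 16 members that had an exact sign-flip p under 0.05 in this reading, so that test adds nothing to the count.

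Among the Rnf genes, Rnf114 and Rnf10 had the lowest means of those on all 6 arrays in the second reading. Rnf114, a RING ligase with further zinc fingers, lay at -0.759, -0.360, -0.262 and -1.61 on replicates 1, 3, 4 and 6 (59Q in Cy5) and at 2.94 and 1.20 on replicates 2 and 5 (59Q in Cy3), and averaged -1.19 ± 0.998 (SD, n = 6) read as Cy5 over Cy3 (adjusted p = 0.143) and 0.192 as deposited. Its duplicate spots on replicate 2 agreed at 2.91 and 2.97. Rnf10, the member with TATAAA just before its start, lay at -0.378, -1.18, -1.57 and -0.613 on replicates 1, 3, 4 and 6 (59Q in Cy5) and at 0.230 and 1.24 on replicates 2 and 5 (59Q in Cy3). It averaged -0.867 ± 0.535 (SD, n = 6) in that reading (adjusted p = 0.126) and -0.378 as deposited. Rnf34, a RING ligase that binds caspases, was the 1 Rnf gene measured on all 6 arrays that stayed above 0 throughout in that reading, with 0.646 ± 0.348 (SD, n = 6) (adjusted p = 0.150), and it averaged 0.283 as deposited. Rnf14, an RBR ligase first known as an androgen receptor partner, averaged -0.506 in that reading and -0.355 as deposited, and Rnf25 averaged -0.690 and -0.177 on 5 arrays.

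Rnf167, an endosomal transmembrane ligase, had the widest range of any member. It lay at -2.06, 4.21, 7.35 and 0.602 on replicates 1, 3, 4 and 6 (59Q in Cy5) and at -0.166 and -1.07 on replicates 2 and 5 (59Q in Cy3). The high values rest on replicates 3 and 4, where its duplicate spots disagreed, at 1.16 and 7.26 and at 2.19 and 12.5. Its mean was 1.48 ± 3.59 (SD, n = 6) as deposited and 1.89 in the second reading, and without replicate 4 these were 0.303 and 0.796. Without replicate 3 they were 0.930 and 1.42. Rnf225 had values on 4 arrays and was at -4.55 on replicate 6, where both spots agreed, and between 0.109 and 0.485 on the other 3. Its mean was -0.868 ± 2.46 (SD, n = 4) as deposited and -1.35 in the second reading, and without that array 0.359 and -0.287.

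Among the deubiquitinases, Usp5, which recycles free ubiquitin chains, lay at -0.656, -0.600, -0.588 and -0.192 on replicates 1, 3, 4 and 6 (59Q in Cy5) and at 0.529 and 0.653 on replicates 2 and 5 (59Q in Cy3). Its 2 orientations did not overlap, and it averaged -0.142 ± 0.593 (SD, n = 6) as deposited and -0.536 ± 0.175 (SD, n = 6) read as Cy5 over Cy3 (adjusted p = 0.159). Usp8, which acts on endosomal sorting of receptors, had the highest Usp mean as deposited, 0.756 ± 1.27 (SD, n = 6), with 0.594 in the second reading. Without replicate 4, where 1 spot of 1 clone read 5.77, these were 0.282 and 0.0881. Usp38 was below 0 on all 5 arrays that measured it as deposited and had the lowest mean of any member in that reading, -1.14 ± 1.94 (SD, n = 5), with -0.973 in the second. Without replicate 4, where a single spot read -4.60, these were -0.275 and -0.0676. Usp10, known as a partner of the stress-granule protein G3BP, averaged -0.464 ± 0.564 (SD, n = 6) as deposited and 0.185, on the other side of 0, in the second reading. Its lowest value was -1.56 on replicate 2, without which the means were -0.245 and -0.0894 in the same order. Otub2 was the OTU gene farthest below 0 in both readings and lay at -1.13, -0.592, -1.77 and -0.554 on replicates 1, 3, 4 and 6 (59Q in Cy5) and at 0.157 and 0.407 on replicates 2 and 5 (59Q in Cy3). It averaged -0.580 ± 0.805 (SD, n = 6) as deposited and -0.768 ± 0.586 (SD, n = 6) read as Cy5 over Cy3 (adjusted p = 0.159). Otulin, which cleaves linear chains, averaged -0.217 and -0.516 in the same order on 5 arrays, and Otud1 -0.181 and -0.368.

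The naming rule took members with small p-values or large means, so values near 0 in the remainder follow partly from that choice. The other 84 tested members lay outside that rule. Their means ran from -0.429 (Usp1, which acts on FANCD2 and PCNA) to 0.538 (Trim14, an adaptor of antiviral signalling) as deposited, and 80 of the 84 lay within 0.5 of 0. Read as Cy5 over Cy3 they ran from -0.534 (Rnf19b) to 0.828 (Trim59), and 2 had an unadjusted p under 0.05, Rnf19b and Fbxl20. Trim59 was measured on 4 arrays, and its value on replicate 4, 3.73, came from a single spot. Among members with well-known roles, Usp7, which stabilises Mdm2, averaged -0.106 as deposited and -0.0675 in the second reading. Usp14, a deubiquitinase of the proteasome, averaged 0.0339 and -0.223, and Usp22, of the SAGA coactivator complex, -0.00775 and 0.0120. Rnf7, the RING partner of Cul5, averaged 0.141 and -0.361, so that it lay above 0 as deposited and below in the second reading. Rnf8 and Rnf168, which act in turn at DNA breaks, averaged -0.165 and 0.506 as deposited and -0.241 and 0.537 in the second reading, Rnf168 on 4 arrays.

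On single arrays, 20 values of 17 members reached the methods' threshold in size, 1 to 5 per array. These were 0.671 to 3.62% of the members measured on an array, against 2.09 to 3.49% of all genes. Of the 17 values that came from genes with 1 clone, 13 had both spots measured and 9 had both spots at or beyond it on the same side. Such pairs included Rnf166, Rnf44, Fbxl18 and Usp39 on replicate 1, Fbxo42 and Rnf114 on replicate 2, and Usp27x on replicate 5. Rnf167 and Trim30d were the members to reach it on more than 1 array. How often paired spots or several arrays reach it over all genes was not counted, so these counts have no background to be read against.

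**Figure D4:**
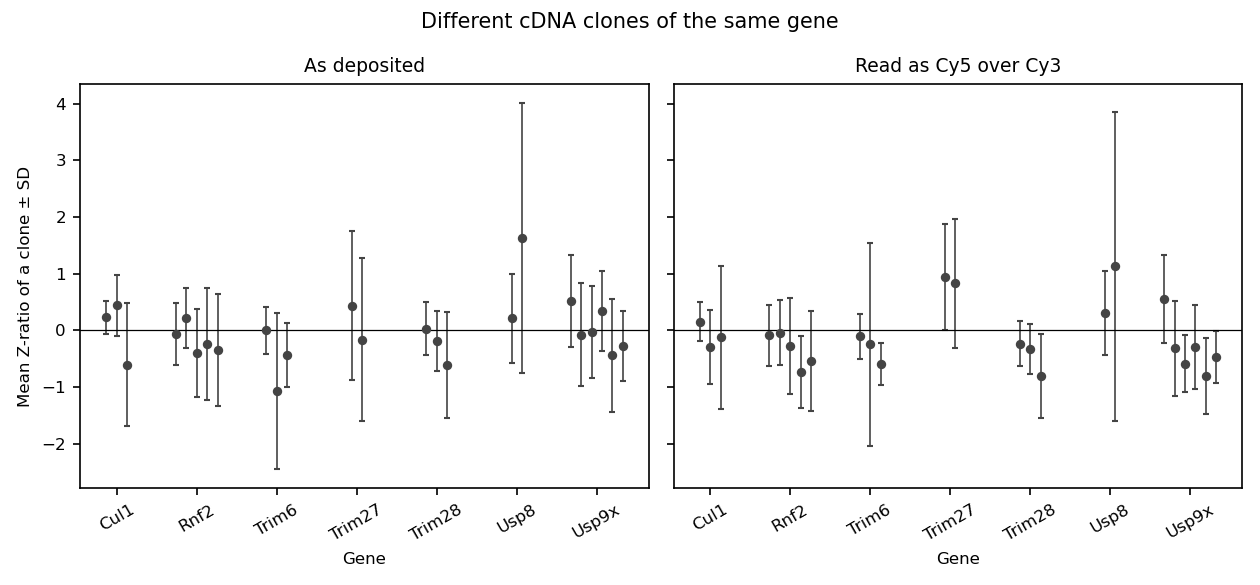
Mean Z-ratio ± SD over arrays (vertical axis, no unit) of each cDNA clone of 7 genes with several clones (horizontal axis), as deposited at left and read as Cy5 over Cy3 at right. Clones of Cul1 and Usp9x lie on both sides of 0 in each panel, and both Trim27 clones lie above 0 at right only.

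Several members were printed as more than 1 clone, which gives a second look at the same transcript, as the plot of clones shows. In 43 members with at least 2 tested clones, all clones had the same sign in 18 (41.9%) as deposited and in 26 (60.5%) read as Cy5 over Cy3, against 45.5% and 52.6% of 1599 genes. With exactly 2 clones, which sets the number of clones equal, the shares were 53.1% of 32 members against 51.8% of 1170 genes as deposited, and 59.4% against 58.6% in the second reading. The 6 clones of Usp9x, a deubiquitinase with a Y-linked near copy, spread over 0.963 between the lowest and highest mean as deposited, and the 3 of Cul1 over 1.05. The 5 clones of Rnf2, the Polycomb ligase of histone H2A, had means from -0.40 to 0.22 as deposited and from -0.73 to -0.04 in the second reading. Of the 200 member clones tested singly, 0 passed in either reading, and in the second reading 279 of 14418 clones did. The smallest adjusted p of a member clone there was 0.0859, for Trim44.

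Other genes of the system, listed by name, gave no call either. The list of cullin partners, neddylation, COP9 and anaphase-promoting complex genes and adaptors held 68 symbols, some of them synonyms of the same gene. Of these, 44 were tested and 0 passed in either reading, with medians of -0.0902 as deposited and -0.312 read as Cy5 over Cy3. In the second reading 12 of the 44 were above 0 and 32 below, and 13 had an unadjusted p under 0.05, 2 above 0 and 11 below. Over all genes 34.6% were above 0 in this reading and 19.8% had an unadjusted p under 0.05, 415 above 0 and 867 below. Those below included Ddb1, the Cul4 adaptor, at -0.641 (-0.193 as deposited) and Cand1, the cullin exchange factor, at -0.718 (-0.152 as deposited). Those above were Ube2f, a NEDD8-conjugating enzyme, at 1.20 (0.514 as deposited) and Dcun1d1, which promotes cullin neddylation, at 1.10 (0.236 as deposited). None passed among 9 tested deubiquitinases of other names or 39 tested ligases of other names, whose medians in that reading were -0.0106 and -0.230.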

How the data were processed

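Total RNA of cells transfected with 59Q or N3 was labelled with a tyramide signal amplification kit and hybridised to cDNA arrays. The authors acquired slide data from an Axon scanner with GenePix Pro and applied a Z score transformation. Neither tool versions nor a genome build is given in the sources used here. The deposited values are a score, the Z-ratio of each spot. No intensities were used. The number of arrays, missing spots and the spread between duplicate spots and clones limit the precision.

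Both spots of a clone (an odd ID and the next even one) were averaged, then the clones of each gene. Gene names came from the platform annotation, and all 150 members matched a gene table by Entrez ID. Genes on at least 4 of 6 arrays were fitted in R 4.3.3 by limma 3.58.1 (lmFit, an intercept alone or with dye orientation, then eBayes, 2-sided, Benjamini-Hochberg over 6463 genes, threshold 0.05), and the fit was tested on simulated data. Exact sign-flip permutation tests covered single genes. Members and lists were chosen with earlier results of these data known. Named were all cullins, up to 2 members per family and direction with the smallest p as deposited, members with 1 sign on at least 5 arrays in either reading, members with at least 3 clones and up to 5 per direction with the largest means read as Cy5 over Cy3. Other members named were picked after their values were seen, for single values, for the ends of a range or for a well-known role. Alternatives were array centring, quantile normalisation, clipping of spots, clone medians, filters on missing arrays, the variance model, single clones, flip-dye pairings and leaving out arrays.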

Additional observations from a re-analysis of the deposited data

Results flagged for a closer look

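Of 60 named members, 3 had 1 array far from the others, with a gap to the nearest array that took up most of the range. By chance about 1 in 20 genes would stand out in this way if values were normally distributed. Some of the 60 were chosen for large means or small p-values, so that rate need not hold for them. The share over all genes was not counted. Usp38 was at -4.60 on replicate 4, from a single spot, and the nearest array was at -0.425. Rnf225, measured on 4 arrays, was at -4.55 on replicate 6, and its nearest array was at 0.109. Usp10 was at -1.56 on replicate 2, and the nearest array was at -0.416.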

How the results depend on the processing

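Counts of members passing limma's test stayed at 0 under every alternative that was run as deposited, the 12 possible flip-dye pairings included, and under those run for the dye coefficient, which had no pairings. Read as Cy5 over Cy3 the count became 1, Trim27, when only genes on all 6 arrays were tested, where 111 members and 4926 genes entered the adjustment, and stayed at 0 otherwise. With 1 array left out in turn it was 0 throughout in both readings. Members with a mean Z-ratio past the methods' threshold numbered 0, against 4 at a threshold of 1 as deposited and 5 with the sign of replicates 2 and 5 turned, and on the single arrays 1 to 6 they numbered 5, 4, 3, 5, 1 and 2. Medians over members moved by less than the spread between arrays. Of the 60 named members, 38 kept the sign of their deposited mean under the alternatives run for them other than the turned reading. Those of Rnf225, on 4 arrays, did not leave out replicate 6, without which its mean was 0.359 against -0.868. Trim27, in the one setting given above, was the only named member to pass in either reading. No paired analysis was possible because the labels do not say which arrays form a flip-dye pair, beyond averaging over each of the 12 pairings the dyes allow, and every array already holds both 59Q and N3. Values carry no signal level, so dim and bright spots could not be told apart.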
